A study of Saccharomyces cerevisiae with 4 samples.

Results

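The 10 genes described here belong to yeast zinc homeostasis: the zinc transporter genes ZRT1, ZRT2, ZRT3, ZRC1, COT1, ZRG17 and MSC2, the regulator gene ZAP1, and ZPS1 and ADH4, a cell-surface protein gene and an alcohol dehydrogenase gene that Zap1 is known to switch on. They were picked by gene symbol from a table of 7126 features, and all 10 were measured in every library. The cells were Saccharomyces cerevisiae strain CRY, of mating type MATa and with the genotype delta(ade2 his3 leu2 trp1 ura3), in both groups. Control cells grew for 18 h in YPD, a rich medium of 2% glucose, 2% peptone and 1% yeast extract, with an estimated 0.0036 mM manganese. Manganese-adapted cells grew for 120 h in YPD with MnSO4 at 2.5 mM. Both groups were taken at the stationary stage, each with 2 RNA-seq libraries from total RNA. Culture time and manganese changed together and cannot be told apart. Nothing in the labels says that the libraries of a group were separate cultures. The p-values therefore compare the groups with a spread between libraries that may be technical.

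Yeast takes up zinc through plasma membrane transporters, stores it in the vacuole and passes it to the secretory pathway, where many enzymes need it. The activator Zap1 senses zinc: when zinc is scarce it binds short promoter sequences called zinc-responsive elements and raises transcription of uptake and mobilisation genes, its own gene included, and zinc itself inactivates it. ZRT1, ZRT2, ZRT3, ZPS1, ADH4, ZRC1 and ZRG17 are known targets of Zap1 besides ZAP1 itself, and COT1 and MSC2 are not.

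The libraries held 12307870 to 14184276 reads, so that 1 read was worth 0.0708 to 0.0789 CPM, the unit of the table, in which reads are scaled to a common library size. A floor of 3 reads lay at 0.212 to 0.237 CPM, and every zinc gene lay far above it. These floors cover counting error only, whereas the 95% intervals of fold changes given for single genes come from limma and the spread between libraries. Of 6296 features tested, 4313 (68.5%) differed between the groups, so a call alone sets a gene little apart. All 5 a-cell markers were detected in every library. Their summed level was 246 and 269.5 CPM in the control libraries and 255 and 257 CPM in the adapted libraries. Within this sum STE2 (-0.81), MFA2 (-0.59) and MFA1 (-0.39) were lower by limma on the log2 scale, and BAR1 (0.92) and STE6 (0.45) higher. The 3 alpha-cell markers summed to 15.8 and 14.2 CPM in the control libraries and to 39.4 and 45.5 CPM in the adapted libraries, with none of them at 0. Of these, STE3 (2.09) and MF(ALPHA)1 (1.74) were higher by limma and MF(ALPHA)2 (-0.59) was lower. The 5 genes named in the genotype had reads in every library, from 37.0 to 830.2 CPM. Their part in the zinc gene values was not tested. CPM is a share of each library's reads, so less RNA per cell and fewer cells of a type cannot be told apart.

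Within 1000 bases before the start codon, 9 of the 10 genes hold a match to the zinc-responsive element with at most 1 mismatch. Among 6002 nuclear protein-coding genes, 197 (3.28%) do. The promoters of the 9 are shown because such matches stand before genes that rose and before genes that did not, though the mismatched letters differ. The element searched is 11 bases long and reads ACCTT, any base, then AAGGT. It is its own reverse complement, so a single pass covers both strands, and overlapping matches were all kept. Positions are counted from the first base of the start codon, with -1 just before it, and sequences are from the R64 genome, 5′ to 3′ on the gene's strand. Capitals mark matches with at most 1 mismatch. ZRT1 holds an exact match at -204 and a match with 1 mismatch at -319 in chrVII:20628-20927 (plus strand, -350 to -51):
ZRT1: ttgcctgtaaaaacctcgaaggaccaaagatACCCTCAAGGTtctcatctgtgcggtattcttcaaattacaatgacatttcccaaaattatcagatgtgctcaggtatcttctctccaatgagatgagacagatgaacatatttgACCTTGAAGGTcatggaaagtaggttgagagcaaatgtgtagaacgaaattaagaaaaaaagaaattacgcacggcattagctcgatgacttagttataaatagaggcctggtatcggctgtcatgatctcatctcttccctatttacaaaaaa

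Each of the other 4 genes that rose has 1 or 2 matches, all with 1 mismatch. They are chrXII:404294-404393 (minus strand) for ZRT2, with matches at -311 and -262, and chrXI:118613-118672 (plus strand) for ZRT3, with a match at -155. ZAP1 is shown in chrX:333183-333242 (minus strand), with a match at -144, and ZPS1 in chrXV:34308-34377 (plus strand), with matches at -329 and -314:
ZRT2: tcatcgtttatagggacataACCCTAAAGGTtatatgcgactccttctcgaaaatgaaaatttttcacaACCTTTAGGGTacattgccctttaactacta
ZRT3: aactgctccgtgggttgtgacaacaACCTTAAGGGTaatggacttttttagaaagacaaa
ZAP1: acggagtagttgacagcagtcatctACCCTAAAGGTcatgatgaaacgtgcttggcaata
ZPS1: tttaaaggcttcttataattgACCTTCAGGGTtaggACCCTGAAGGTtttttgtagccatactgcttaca

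Among the 5 genes that did not pass the test, 4 have a match. ZRG17 carries an exact one at -84 in chrXIV:699481-699540 (minus strand), the same 11 bases as the exact match of ZRT1. ZRC1 has a match at -174 in chrXIII:756306-756365 (minus strand), MSC2 at -60 in chrIV:859261-859320 (plus strand) and ADH4 at -518 in chrVII:14616-14675 (plus strand), each with 1 mismatch:
ZRG17: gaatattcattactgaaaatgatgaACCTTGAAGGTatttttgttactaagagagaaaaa
ZRC1: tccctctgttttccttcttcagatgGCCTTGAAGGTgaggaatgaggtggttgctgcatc
MSC2: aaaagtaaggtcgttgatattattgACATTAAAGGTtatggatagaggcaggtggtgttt
ADH4: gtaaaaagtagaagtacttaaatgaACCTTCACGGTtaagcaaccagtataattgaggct

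In the 500 bases before the start codon, 8 of the 10 zinc genes held a match with at most 1 mismatch, against 118 of 6002 nuclear protein-coding genes (1.97%). Exact matches stood in 2 of the 10 and in 9 of the 6002 (0.15%). In the window from 250 bases before to 50 after the start, 6 of 10 held a match with up to 2 mismatches, beside 718 of 6002 (12%). COT1 had none within 1000 bases with up to 2 mismatches. Most of the 10 genes are known Zap1 targets, so their high share was foreseeable and is not a test. A match describes letters in a window and not a bound site. ZRT1 and ZRG17, which share the same exact element, changed by 2.86 and 0.07 on the log2 scale.

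**Figure D1:**
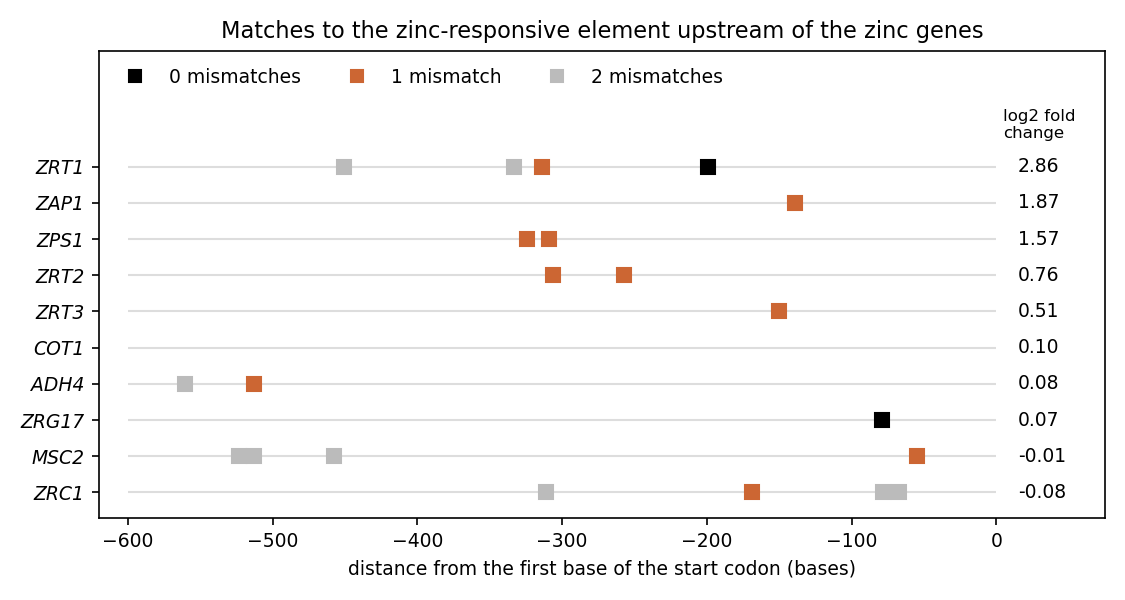
Positions of matches to the zinc-responsive element before the 10 zinc genes, in bases from the start codon (horizontal axis), 1 row per gene, with 0, 1 and 2 mismatches in different colours and the log2 fold change at the right. Exact matches stand at -204 before ZRT1 and at -84 before ZRG17, and COT1 has no match.

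Zinc uptake RNA was higher in the manganese-adapted cells. ZRT1, the high-affinity zinc uptake gene, rose most, to 7.36 times its control level, with ZAP1 at 3.72 times and ZPS1 at 3.12 times. ZRT2, the low-affinity uptake gene, and ZRT3, which moves zinc out of the vacuole, rose to 1.70 and 1.42 times. The genes that move zinc into the vacuole or the secretory pathway, ZRC1, COT1, ZRG17 and MSC2, and the alcohol dehydrogenase gene ADH4 did not pass the test. In all, 5 of 10 were higher and 0 lower by limma, where 33.6% of all tested features were higher and 34.9% lower. The median log2 fold change of the 10 was 0.30, beside -0.01 over all features tested.

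ZRT1 (YGL255W, chrVII:20978-22108, plus strand, R64, 1 coding exon) encodes the high-affinity uptake transporter of the plasma membrane. Its level was 53.9 and 49.2 CPM in the control libraries and 381 and 377 CPM in the adapted libraries, from 761, 655, 5165 and 4778 reads. The groups lay far apart and each was narrow. The means were 51.5 ± 3.30 and 379 ± 2.63 CPM (SD, n = 2 libraries each), a log2 fold change of 2.86 ± 0.08 (SE) with limma adjusted p = 3.1e-09. The 95% interval of the fold change ran from 6.36 to 8.25. ZRT1 ranked 22 of 6296 features from the top by log2 fold change. A rise of at least 1 on this scale was called for ZRT1, ZAP1 and ZPS1 among the 10 zinc genes, and for 8.28% of all features tested.

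ZRT2 (YLR130C, chrXII:402794-404062, minus strand) encodes the low-affinity uptake transporter, a relative of Zrt1 that Zap1 is known to activate in mild zinc shortage and to repress in severe shortage. Its level was 95.2 and 94.0 CPM in the control libraries and 166 and 157 CPM in the adapted libraries. All adapted values stood above all control values. The log2 fold change was 0.76 ± 0.08 (SE), with limma adjusted p = 1.53e-05, and ZRT2 ranked 842 from the top. The coding sequences of ZRT1 and ZRT2 share no identical run longer than 12 bases, so reads of one are unlikely to have been counted for the other.

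Per kb of coding length, the ratio of ZRT1 to ZRT2 RNA was 0.635 and 0.587 in the control libraries and 2.58 and 2.7 in the adapted libraries. The low-affinity gene therefore had the higher level of the pair in both control libraries, and the high-affinity gene in both adapted libraries. Summed over the pair, uptake RNA stood at 122.6 and 117.6 CPM per kb in the control libraries and at 467 and 457 CPM per kb in the adapted libraries.

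ZAP1 (YJL056C, chrX:330431-333073, minus strand) encodes the zinc-sensing activator. Its level was 35.0 and 33.6 CPM in the control libraries and 124 and 131 CPM in the adapted libraries. The groups did not overlap. The means were 34.3 ± 0.981 and 128 ± 4.74 CPM (SD, n = 2 libraries each), and the log2 fold change was 1.87 ± 0.09 (SE) with limma adjusted p = 7.03e-08. ZAP1 is the longest coding sequence of the 10, at 2643 bases. With the trend of log2 values over coding length removed from each library, its log2 fold change was 1.56, below the 1.73 of ZPS1.

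ZPS1 (YOL154W, chrXV:34658-35407, plus strand) encodes a GPI-anchored protein of the cell surface and is the shortest of the 10, with 750 coding bases. Its level was 13.9 and 12.7 CPM in the control libraries and 39.1 and 43.8 CPM in the adapted libraries. All adapted values stood above all control values. The log2 fold change was 1.57 ± 0.12 (SE), with limma adjusted p = 1.16e-06. As the gene with the fewest reads among the 10, with 169 to 555, it depends most on the pseudocount: at 10 CPM in place of 1 its log2 fold change was 1.14.

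ZRT3 (YKL175W, chrXI:118793-120304, plus strand) encodes the transporter that releases zinc from the vacuole. Its level was 175 and 137 CPM in the control libraries and 235 and 207 CPM in the adapted libraries. The groups did not overlap, but the control libraries differed from each other more than those of any other of the 10 genes, with means of 156 ± 27.5 and 221 ± 19.9 CPM (SD, n = 2 libraries each). The log2 fold change was 0.51 ± 0.12 (SE), with limma adjusted p = 0.00305. With 1 library left out, the log2 fold change was 0.42 without the first adapted library and 0.60 without the second. It was 0.69 without the first control library and 0.33 without the second. The call did not hold in every such fit, each of which takes its spread from 1 group alone.

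ZRC1 (YMR243C, chrXIII:754838-756166, minus strand) and COT1 (YOR316C, chrXV:906236-907555, minus strand) encode related transporters that move zinc into the vacuole. ZRC1 stood at 238 and 234.37 CPM in the control libraries and at 233.94 and 212 CPM in the adapted libraries, so the groups came within 1 CPM of each other without overlapping. COT1 stood at 212 and 199 CPM in the control libraries and at 224 and 215 CPM in the adapted libraries, again without overlap and in the other direction. Neither passed the test: the log2 fold change was -0.08 ± 0.09 (SE) for ZRC1 (limma adjusted p = 0.404) and 0.10 ± 0.08 (SE) for COT1 (limma adjusted p = 0.32). The 95% intervals of the fold change were 0.826 to 1.08 and 0.941 to 1.22.

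ZRG17 (YNR039C, chrXIV:697614-699431, minus strand) and MSC2 (YDR205W, chrIV:859346-861520, plus strand) encode partners of a complex that moves zinc into the endoplasmic reticulum. ZRG17 stood at 62.2 and 57.5 CPM in the control libraries and at 66.5 and 59.2 CPM in the adapted libraries. MSC2 stood at 68.4 and 63.1 CPM in the control libraries and at 65.9 and 64.7 CPM in the adapted libraries. The groups overlapped for both genes. The log2 fold change was 0.07 ± 0.10 (SE) for ZRG17 (limma adjusted p = 0.551) and -0.01 ± 0.09 (SE) for MSC2 (limma adjusted p = 0.944), with 95% intervals of the fold change from 0.903 to 1.22 and from 0.867 to 1.14. With the trend of log2 values over coding length removed from each library, MSC2 was lower by limma (-0.30, adjusted p = 0.00975). The ratio of ZRG17 to MSC2 per kb was 1.09 and 1.09 in the control libraries and 1.21 and 1.09 in the adapted libraries.

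ADH4 (YGL256W, chrVII:15159-16307, plus strand) encodes an alcohol dehydrogenase isozyme that Zap1 is known to induce when zinc is scarce. Its level was 42.8 and 49.4 CPM in the control libraries and 50.9 and 46.3 CPM in the adapted libraries, and the groups overlapped. The log2 fold change was 0.08 ± 0.11 (SE), with limma adjusted p = 0.543. The 95% interval of the fold change, 0.895 to 1.24, lies below the interval of every one of ZRT1, ZAP1, ZPS1 and ZRT2. It overlaps that of ZRT3, 1.19 to 1.71.

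Without a test, 6 of the 10 genes were higher in every adapted library than in every control library and 1 was lower, where 42.4% and 43.3% of all features tested were so placed. In the authors' deposited table the same 5 genes, ZRT1, ZRT2, ZRT3, ZAP1 and ZPS1, had a false discovery rate under 0.05. The authors' deposited table gave ZRT1 a log2 fold change of 2.88 and ZAP1 one of 1.90.

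**Figure D2:**
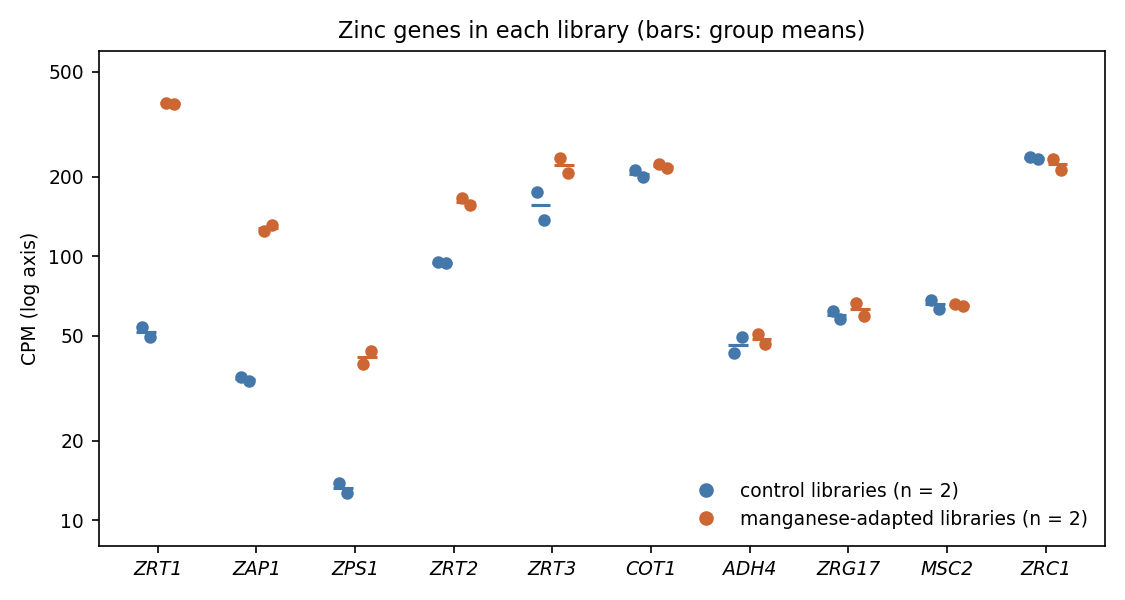
Levels of the 10 zinc genes in each library, in CPM on a log axis, with control and manganese-adapted libraries as points (n = 2 each) and group means as bars. ZRT1 moved from 53.9 and 49.2 to 381 and 377 CPM, while ADH4, ZRG17 and MSC2 overlapped between the groups.

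**Figure D3:**
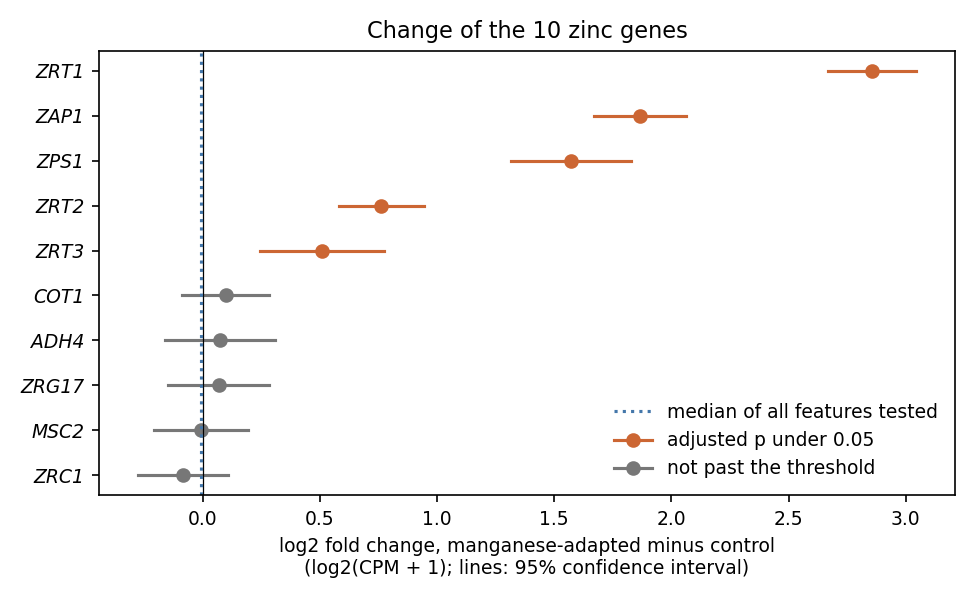
Log2 fold change of the 10 zinc genes, adapted minus control, with points for limma estimates of log2(CPM + 1) and lines for 95% intervals. The intervals of ZRT1, ZAP1, ZPS1, ZRT2 and ZRT3 lie above 0, and those of the other 5 genes include 0.

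The order of the levels shifted accordingly. Per kb of coding length, the vacuolar import genes led the control libraries, with ZRC1 at 178 ± 2.06 and COT1 at 155 ± 6.93 CPM per kb (SD, n = 2 libraries), followed by ZRT3 at 103 ± 18.2 and ZRT2 at 74.5 ± 0.683. ZRT1 came next at 45.6 ± 2.91 and ADH4 at 40.1 ± 4.07, a gap within their summed SDs. ZRG17 at 32.9 ± 1.82 and MSC2 at 30.2 ± 1.71 CPM per kb were again within their summed SDs. ZPS1 at 17.7 ± 1.11 and ZAP1 at 12.97 ± 0.371 were lowest.

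In the adapted libraries ZRT1 led at 335 ± 2.32 CPM per kb. ZRC1 at 168 ± 11.6 and COT1 at 166 ± 4.94 followed with overlapping values, and then ZRT3 at 146 ± 13.2 and ZRT2 at 127 ± 5.03 CPM per kb. ZPS1 at 55.3 ± 4.46 and ZAP1 at 48.3 ± 1.79 CPM per kb had moved above ADH4 at 42.3 ± 2.85, ZRG17 at 34.6 ± 2.84 and MSC2 at 30.04 ± 0.389. The ratio of ZRT3, the vacuolar exit gene, to ZRC1, an entry gene, was 0.647 and 0.512 per kb in the control libraries and 0.884 and 0.858 in the adapted libraries. The ratio of ZRC1 to COT1 was 1.12 and 1.17 in the control libraries and 1.04 and 0.98 in the adapted libraries.

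Around ZRT1 on chromosome VII, FZF1 and YGL258W-A were also higher, while VEL1, MNT2 and ADH4 between them did not pass the test. In order along the chromosome, YGL258W-A, VEL1, MNT2 and ADH4 precede ZRT1, and FZF1, a regulator of sulfite efflux, follows it with 195 bases between. VEL1, a gene reported to respond strongly to zinc shortage, stood at 5.31 and 6.01 CPM in the control libraries and at 6.42 and 6.95 CPM in the adapted libraries. Its log2 fold change was 0.21, with limma adjusted p = 0.254. MNT2, a mannosyltransferase gene between VEL1 and ADH4, had a log2 fold change of 0.16 (limma adjusted p = 0.126). FZF1 rose by 0.35 (limma adjusted p = 0.00481), from 52.3 ± 2.05 to 67.1 ± 0.426 CPM (SD, n = 2 libraries each). YGL258W-A rose by 1.20 (limma adjusted p = 6.62e-05) from a low level, 3.62 ± 0.410 to 9.59 ± 0.725 CPM.

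**Figure D4:**
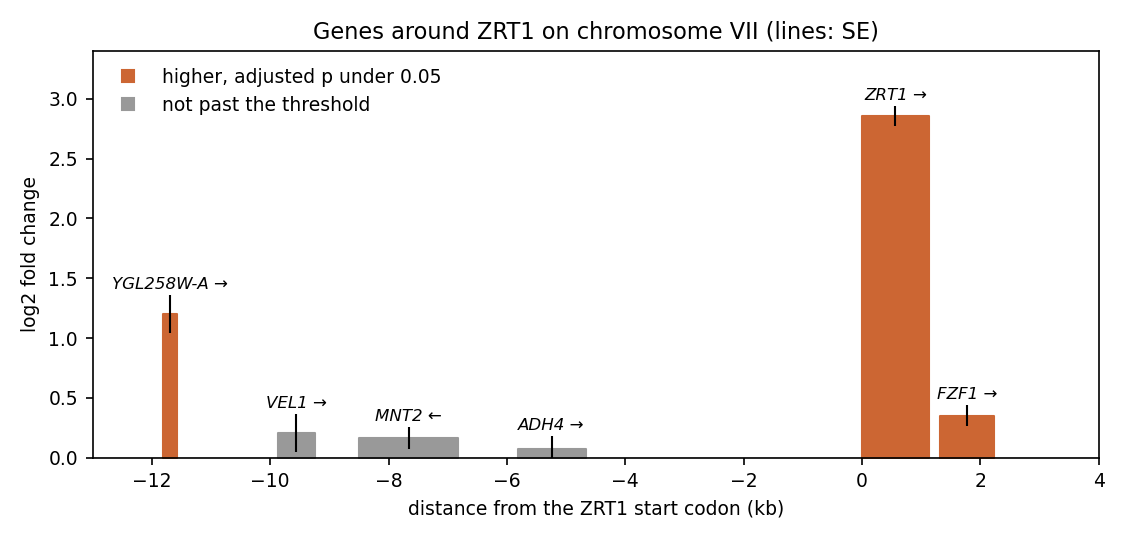
Log2 fold change (height of each block, adapted minus control, lines for SE) of the genes around ZRT1 on chromosome VII by distance of each gene from the start of ZRT1 (horizontal axis). ZRT1 stands at 2.86, and VEL1, MNT2 and ADH4 lie between 0.08 and 0.21.

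Of 3 other transporters known to carry zinc, FET4 and PHO84 were higher and YKE4 did not pass the test, where 33.6% of all features tested were higher and 34.9% lower. FET4, a low-affinity transporter of iron, copper and zinc, rose from 173 ± 9.06 to 251 ± 4.26 CPM (a log2 change of 0.53, limma adjusted p = 0.000224). PHO84, the high-affinity phosphate transporter that also moves manganese and zinc, rose from 112 ± 9.55 to 218 ± 15.2 CPM (0.95, limma adjusted p = 8.35e-06). PHO84 overlaps an annotated antisense RNA, and without a stated strand setting their reads cannot be told apart. YKE4, a zinc transporter of the endoplasmic reticulum, had 167 ± 6.87 and 189.6 ± 9.48 CPM and a log2 fold change of 0.18 (limma adjusted p = 0.083). Leaving out 1 library gave YKE4 log2 fold changes from 0.13 to 0.23. The median over the 3 was 0.53, beside -0.01 over all features tested.

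Beyond the 10 zinc genes, reported Zap1 targets moved in both directions. Of 24 tested, FET4 included, 9 were higher, 10 lower and 5 did not pass the test, at a median log2 fold change of 0.17. Shares of all features tested were 33.6% higher and 34.9% lower. FLO11, a cell-surface flocculin gene, rose most, from 9.27 to 55.8 CPM (2.47, limma adjusted p = 4.41e-08). The choline kinase gene CKI1 rose by 1.07, the ethanolamine kinase gene EKI1 by 0.77 and the phosphatidate phosphatase gene PAH1 by 0.75 on the log2 scale. MCD4, an enzyme of GPI anchor synthesis whose promoter holds an exact element at -104, rose by 0.84, and ZRG8 by 0.73.

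The largest fall in that list was of PIS1, the phosphatidylinositol synthase gene, from 205 to 82.1 CPM (a log2 change of -1.31, limma adjusted p = 4.56e-07). IZH2, a membrane receptor gene of the IZH family, fell from 127 to 53.8 CPM (-1.23, limma adjusted p = 9.59e-07). The methionine permease gene MUP1 fell by 0.95 on the log2 scale, the peroxiredoxin gene TSA1 by 0.92, the purine synthesis gene ADE17 by 0.80 and KTI12 by 0.55. IZH1, VEL1, YOR387C, MNT2 and URA10 did not pass the test. With the coding length trend removed VEL1 (0.50), YOR387C (0.61) and URA10 (0.40) passed it. Leaving out 1 library gave YOR387C log2 fold changes from 0.08 to 0.54. The range was -0.22 to -0.05 for IZH1 and 0.12 to 0.24 for URA10. VEL1 and YOR387C share an identical run of 62 bases, so their reads cannot be fully assigned. Among these targets, 5 held an element with at most 1 mismatch in 500 bases (IZH1, DPP1, MCD4, MNT2 and GPG1), of which MCD4 was higher and DPP1 and GPG1 were lower. The element of MNT2, at -494, is the same site as that of ADH4 at -518. GPG1 ranged from -0.42 to -0.26 on the log2 scale with 1 library left out, and its call did not hold in every such fit. With the coding length trend removed the log2 fold change of GPG1 turned from -0.34 to 0.13.

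Of 4 genes reported to be reduced by Zap1 through transcripts that start upstream of them, 3 were lower and 1 higher, beside 34.9% and 33.6% of all features tested. Each library has 1 CPM value per gene, so transcripts of a gene with different starts cannot be told apart. ADH1, the main fermentative alcohol dehydrogenase gene, fell from 1731 ± 197 to 980.3 ± 143 CPM (a log2 change of -0.82, limma adjusted p = 0.000537). ADH3, its mitochondrial counterpart, fell from 893 ± 5.28 to 663 ± 71.9 CPM (-0.43, limma adjusted p = 0.0059). HNT1 fell from 323 ± 10.4 to 266 ± 4.03 CPM (-0.28, limma adjusted p = 0.0139). RTC4 rose from 24.2 ± 0.579 to 35.3 ± 0.834 CPM (0.53, limma adjusted p = 0.000948). The median over the 4 was -0.35, beside -0.01 over all features tested. Leaving out 1 library gave log2 fold changes from -0.54 to -0.32 for ADH3 and from -0.31 to -0.24 for HNT1. The calls for ADH3 and HNT1 did not hold in every such fit. With the coding length trend removed the log2 fold change of HNT1 was 0.14.

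Of 16 genes for zinc-binding enzymes, ADH1 and ADH3 of the preceding list included, 4 were higher, 8 lower and 4 did not pass the test. The median log2 fold change was -0.27, beside -0.01 over all features tested. Among all features 33.6% were higher and 34.9% lower, so the share of these genes called in either direction is near the 68.5% of the background. ADH2, the alcohol dehydrogenase of ethanol use, rose most, from 56.3 ± 3.46 to 1563 ± 256 CPM (4.76, limma adjusted p = 9.79e-10). Because ADH1 and ADH2 share an identical run of 189 bases, the levels of both are uncertain. The methionine synthase gene MET6 rose by 0.53, the cytidine deaminase gene CDD1 by 0.47 and the carbonic anhydrase gene NCE103 by 0.35. The dihydroorotase gene URA4 fell from 125 to 51.4 CPM (-1.27), DCD1 fell by 0.86 on the log2 scale, the aminopeptidase gene APE1 by 0.73 and the methionine aminopeptidase gene MAP1 by 0.63. SOD1, the copper-zinc superoxide dismutase, fell from 4042 ± 193 to 2662 ± 226 CPM (-0.60). With the coding length trend removed it was -0.18 with a limma adjusted p of 0.403, and MET6 was 0.23 with one of 0.0517. With 1 library left out, the log2 fold change was -0.69 to -0.52 for SOD1. It was 0.37 to 0.57 for CDD1 and 0.30 to 0.40 for NCE103. The calls for SOD1, CDD1 and NCE103 did not hold in every such fit.

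**Figure D5:**
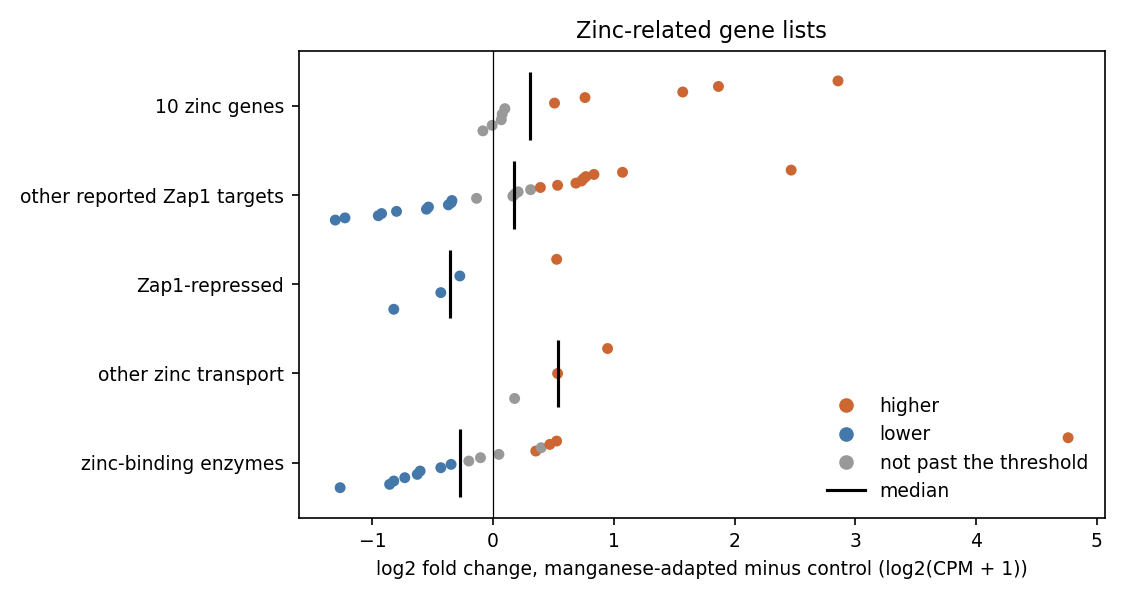
Log2 fold change (adapted minus control) of each gene in the zinc gene lists, 1 row per list, coloured by the limma call, with list medians as vertical lines. The 10 zinc genes have a median of 0.30, the other reported Zap1 targets 0.17 and the zinc-binding enzymes -0.27.

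The genes whose profile over the 4 libraries lay nearest to that of ZRT1, among 5641 with a mean of at least 10 CPM, were POX1, TOG1, CMK2, HXT13 and YDL218W, in that order. Likeness was the Euclidean distance between log2(CPM + 1) profiles centred on their means, from 0.0769 for POX1 to 0.192 for YDL218W. POX1 encodes the acyl-CoA oxidase of fatty acid breakdown, CMK2 a calmodulin-dependent kinase and HXT13 a hexose transporter family member. Their log2 fold changes ran from 2.85 for CMK2 to 2.98 for HXT13, beside 2.86 for ZRT1. With 2 groups of 2 libraries, such a distance reflects mainly the size of the group difference.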

How the data were processed

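RNA-seq of 2 control and 2 manganese-adapted samples was analysed from 1 table that the authors deposited. Samples were grouped by the labels' adaptation status. The submitters' processing notes name Bowtie, HTSeq, edgeR, TopHat2 2.0.13 and cutadapt 1.8.1, with build sacCer3 (R64). What each tool did, which annotation was used and whether strand was counted is not given in the sources. The 4 per-sample columns are headed as counts, per the file headers, but the deposited values are CPM scaled by an effective library size. All values (100.0%) lay within 0.01 reads of whole reads, which were recovered for the count tests. For each gene the authors also deposited a log2 fold change with its p-value and false discovery rate, from a test that is not named.

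The main test was limma-trend (limma 3.58.1, R 4.3.3) on log2(CPM + 1), fitted over 6296 features, those at 1 CPM or above in 2 or more samples, with Benjamini-Hochberg adjustment over all of them at 0.05. Fold changes on this scale understate the change of low genes. Alternatives were other pseudocounts and filters, edgeR 4.0.16 quasi-likelihood and DESeq2 1.42.0 on the recovered reads, other scalings, removal of a trend over coding length or GC content, a replicate block and leaving out each library. The fits were tested on simulated data. CPM per kb was CPM divided by R64 coding length in kb. R64 coding lengths were found for 6013 features (84.4%). The zinc-responsive element was searched by script in the R64 genome.

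The 10 zinc genes and the other lists were chosen with earlier results of these data known. Named genes were the 10, every gene of the lists of other zinc transport and of Zap1-repressed genes, up to 6 each way of the other 2 lists by size of change, the genes around ZRT1, and the 5 nearest to its profile. Genes with an exact zinc-responsive element, and those named for not passing the test or for a dependence on processing, were added after their values were seen.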

Additional observations from a re-analysis of the deposited data

How the results depend on the processing

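All 17 alternatives kept ZRT1, ZAP1, ZPS1 and ZRT2 higher, with ZRT1 between 2.66 and 2.92 on the log2 scale. Leaving out 1 library gave a median log2 fold change of the 10 zinc genes between 0.24 and 0.42. Such a fit takes its spread from the group that keeps 2 libraries, so a call lost there does not single out a library. With the coding length trend removed, with or without the replicate block, 1 of the 10 was lower (MSC2). ZAP1 was then at 1.56, ZPS1 at 1.73 and ZRT3 at 0.36 on the log2 scale, all still higher by limma. ATG41 then changed from -0.35 to 0.11, GPG1 from -0.34 to 0.13 and HNT1 from -0.28 to 0.14. The cause was not tested. The zinc-binding enzymes gave 2 to 5 higher and 5 to 8 lower when 1 library was left out, with the lowest counts without the first and without the second adapted library. With no mismatch allowed, 2 of 10 promoters held the element at 250, 500 and 1000 bases.

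Same-numbered samples did not deviate together (correlation -0.179 across genes). With only 2 libraries in each group, that value cannot show whether the numbers pair samples. With the replicate block, 5 of the 10 were higher and 2065 features higher and 2131 lower in all, against 2118 and 2195 without it. The block by itself changed no call among the 10 zinc genes, the lists of zinc transport, Zap1 targets, Zap1-repressed genes and zinc-binding enzymes, the genes around ZRT1 and those nearest to its profile. A crossed pairing, chosen after seeing the data, gave 2179 higher and 2247 lower. With 2 libraries a group, small changes of ADH4, ZRC1, COT1, ZRG17 and MSC2 within their intervals were not detectable.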

Other observations

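Among the 118 tested genes with a zinc-responsive element of at most 1 mismatch in 500 bases, 48 (40.7%) were higher and 41 (34.7%) lower, beside 34.8% and 34.9% of all 5749 tested genes with a promoter. Without the 10 zinc genes, 110 remained, with 43 (39.1%) higher and 41 (37.3%) lower and a median log2 fold change of 0.14, beside 0.01 over all such genes. The hexose transporter gene HXT10 (2.37), the GPI anchor synthesis gene GPI13 (1.51) and the invertase gene SUC2 (1.32) had the largest rises outside the 10, and the cell wall gene UTR2 the largest fall (-1.64). These were chosen after their values were seen.

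Of 9 tested genes with an exact element there, 4 were higher (ZRT1, MCD4, PCD1 and RTC4), 1 was lower (TEX1) and 4 did not pass the test (SDH8, PAN1, ZRG17 and YNR040W). RTC4 and TEX1 face away from the same 11 bases of chromosome XIV, and had log2 fold changes of 0.53 (limma adjusted p = 0.000948) and -0.32 (limma adjusted p = 0.0264). ZRG17 and YNR040W likewise share an exact element, with 0.07 (limma adjusted p = 0.551) and -0.12 (limma adjusted p = 0.352). YJL055W, transcribed away from ZAP1, had -0.19 (limma adjusted p = 0.081) where ZAP1 had 1.87.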
